A study of Homo sapiens with 8 samples.

Results

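The BCL2 family of apoptosis regulators was examined through 10 of its genes, chosen by symbol from the deposited table of 61806 genes. They were the BH3-only genes BBC3, PMAIP1, BCL2L11, BIK and BMF, the guardian genes MCL1, BCL2L1 and BCL2A1, and the effector genes BAX and BAK1. Each symbol matched 1 row of the table. mRNA came from N/TERT-1 cells, an immortalized line of human epidermal keratinocytes of wildtype genotype, which both conditions shared. The 4 control libraries were from cells given ethanol, the solvent, and the 4 O/A libraries from cells given oligomycin, an inhibitor of the mitochondrial ATP synthase, together with antimycin A, an inhibitor of complex III. The study used oligomycin at 10 µM with antimycin A at 4 µM, and the transcriptome comparison was after 4 hours, as its methods and legends state and the labels do not. The 4 libraries of a condition came from independent experiments on this single line.

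BCL2 family proteins decide whether the outer membrane of mitochondria is opened in apoptosis. Guardians hold the effectors BAX and BAK in check, BH3-only proteins bind guardians or activate effectors, and activated effectors form pores that release cytochrome c to the apoptosome and its caspases. BH3-only proteins such as NOXA (PMAIP1) and PUMA (BBC3) are known as sensors that are switched on at the transcript level by stress pathways, and NOXA binds chiefly to MCL1. In epidermis the family is known for guarding basal keratinocytes against loss of attachment and ultraviolet light.

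The promoter windows of PMAIP1, BBC3 and BCL2A1 are shown because these 3 genes had the largest rises among the 10. Each holds 250 bases before and 50 after the annotated start of the gene, read on the gene's strand from RefSeq (GRCh38.p14). Capitals mark matches, on either strand, to 5 motifs chosen with results known, which were TGACGT (the core of a cAMP response element), TGATGCAA (a C/EBP-ATF composite element), TGANTCA (AP-1), CACGTG (E-box) and GGGCGG (GC box). No match marked here overlapped another.
PMAIP1: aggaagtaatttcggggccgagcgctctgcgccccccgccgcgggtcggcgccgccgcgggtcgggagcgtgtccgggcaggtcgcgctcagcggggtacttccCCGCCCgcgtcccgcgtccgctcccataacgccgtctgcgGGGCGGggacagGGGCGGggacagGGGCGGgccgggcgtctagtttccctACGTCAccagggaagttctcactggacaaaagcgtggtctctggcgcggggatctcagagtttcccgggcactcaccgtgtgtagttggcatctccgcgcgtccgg
BBC3: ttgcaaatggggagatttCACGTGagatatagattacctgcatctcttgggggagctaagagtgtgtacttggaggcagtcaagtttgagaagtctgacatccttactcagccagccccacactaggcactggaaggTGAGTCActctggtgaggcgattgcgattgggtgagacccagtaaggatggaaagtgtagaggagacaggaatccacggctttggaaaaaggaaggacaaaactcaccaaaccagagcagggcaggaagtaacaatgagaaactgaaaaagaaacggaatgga
BCL2A1: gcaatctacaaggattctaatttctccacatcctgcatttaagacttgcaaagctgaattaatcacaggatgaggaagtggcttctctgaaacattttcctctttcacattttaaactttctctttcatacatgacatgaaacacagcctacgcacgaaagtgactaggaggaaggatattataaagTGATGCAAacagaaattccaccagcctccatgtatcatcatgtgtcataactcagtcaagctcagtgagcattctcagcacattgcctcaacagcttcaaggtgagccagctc

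The PMAIP1 window, at chr18:59899746-59900045 on the plus strand, is 71.3% G and C and holds 4 GC boxes and 1 TGACGT match, whose first base lies 56 bases before the start. The BBC3 window, at chr19:47232618-47232917 on the minus strand, is 48.0% G and C and holds 1 E-box and 1 AP-1 match, 232 and 113 bases before the RefSeq start. This start, at 47232667, lies 99 bases downstream of the 5′ end of BBC3 in the deposited table, whereas for PMAIP1 and BCL2A1 both positions are the same. The BCL2A1 window, at chr15:79971147-79971446 on the minus strand, is 41.0% G and C and holds 1 TGATGCAA match 63 bases before the start. Of 27305 promoter windows, 1 per gene, TGACGT was found in 8.32%, TGATGCAA in 0.923%, TGANTCA in 7.76%, CACGTG in 7.43% and GGGCGG in 44.6%. Windows were found for 8 of the 10 genes. Taking the first window listed for each, the first 3 of these motifs each occurred in 1 gene, the E-box in 2 (BBC3 and BAX, which holds 4) and the GC box in 5. A match describes the sequence and is not evidence that a factor bound there.

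The effect of O/A was unequal across the family. PMAIP1 rose about 4-fold and BBC3 about 2-fold, BCL2A1 rose from near 0, and the abundant guardian MCL1 rose 1.21-fold. BCL2L11 fell slightly, and BCL2L1, BAX, BAK1, BIK and BMF did not pass both thresholds. Upregulation or downregulation required an adjusted p of at most 0.05, by the quasi-likelihood test of edgeR, and an absolute log2(FC), the log2 of the ratio of O/A to ethanol, above 0.25. All 10 genes met the minimum of 10 counts in at least 4 libraries. BCL2A1 met it only through the O/A libraries, so it had to differ in order to be tested. Of the 10 genes, 4 were upregulated and 1 was downregulated, where the background over the 14893 genes tested was 34.7% called in either direction, 15.8% upregulated and 18.9% downregulated. Without the fold change threshold 7 of the 10 passed, against 53.7% of all genes tested, and with an absolute log2(FC) above 1 only PMAIP1 and BCL2A1 did, against 5.35%, while BBC3 lay just under 1. For 8 of the 10 genes the 4 O/A and the 4 ethanol libraries did not overlap after scaling (TMM-scaled CPM, counts brought to a common library size), against 47.6% of all genes tested, and 6 of these lay above ethanol and 2 below, against backgrounds of 22.8% and 24.8%. The median log2(FC) of the 10 genes was 0.18, and that of all genes tested was -0.0004. The 10 genes and the lists below were chosen with earlier results of these data known. Their shares beside the background are therefore descriptions and not tests. In bulk samples such as these, fewer cells of a kind and less RNA per cell cannot be told apart.

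**Figure D1:**
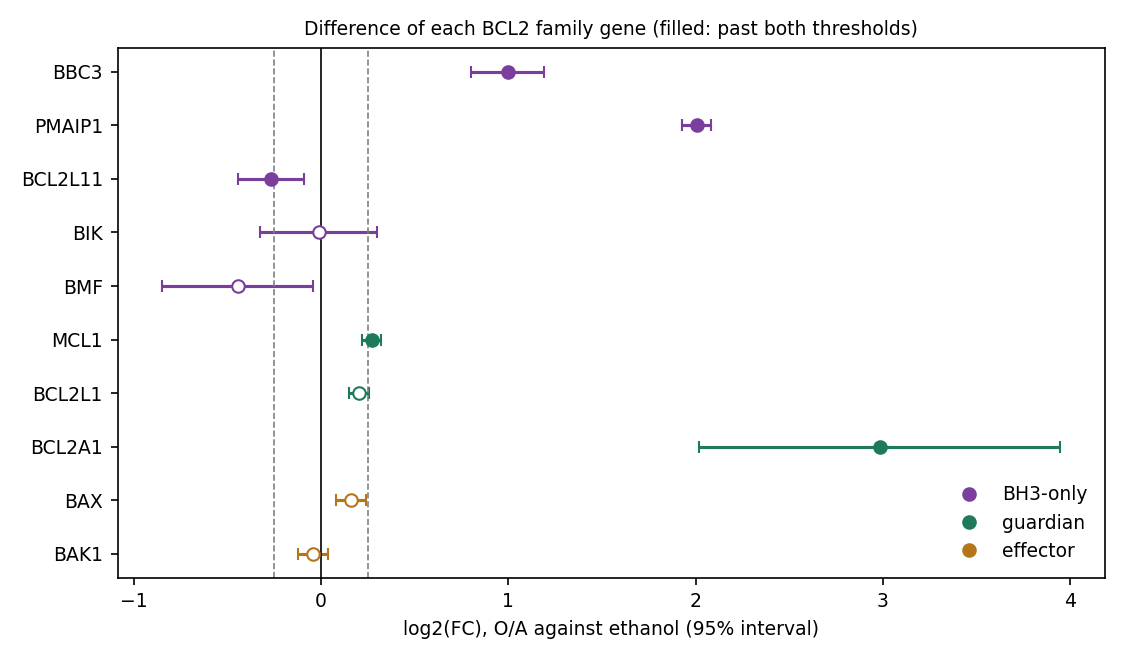
Log2(FC) of each of the 10 genes in O/A against ethanol (horizontal axis) with its 95% interval from edgeR's quasi-likelihood fit, coloured by role, filled where both thresholds were passed, with dashed lines at the log2(FC) threshold of 0.25 in each direction. PMAIP1 at 2.01 and BBC3 at 1.00 have narrow intervals far from 0, BCL2A1 at 2.98 has a wide one, and the effectors lie close to 0.

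The total count per library was 17210404 to 20999927 in ethanol and 17689760 to 19263046 in O/A. All 10 keratinocyte markers (among them KRT5, KRT14 and TP63) were expressed, with a summed FPKM of 5448 to 5752 in ethanol and of 4849 to 5027 in O/A. Markers of other cell types were low, with a summed FPKM of at most 2.95 for 7 fibroblast genes, 1.81 for 6 melanocyte genes, 1.08 for 6 immune genes and 0.08 for 4 endothelial genes. Of the melanocyte genes, MLANA and TYR had no count in any library. MITF, with 128 to 168 counts per library, and PMEL, with 17 to 45, had enough counts to be tested. Nearly all of the fibroblast sum came from COL1A1, which had 376 to 557 counts per library. The immune genes were at 0.54 to 0.80 FPKM with ethanol and at 0.89 to 1.08 FPKM with O/A, of which only CD68 and ITGAM had enough counts to be tested, and PTPRC had at most 1 count per library.

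Levels are given as FPKM (fragments scaled to the exonic length and to the library total) as the authors computed them. They compare genes only roughly, since the exonic length of a gene need not be that of the transcript expressed. Differences between conditions are given as log2(FC) after TMM scaling. Scaling to the library total in place of TMM lowered log2(FC) by a median of 0.045 over all genes, so ratios of FPKM are slightly smaller than the fold changes.

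In ethanol the order of the levels followed the roles, with the main guardians highest, then the effectors, then the BH3-only genes. MCL1 had 77.9 ± 0.794 FPKM (SD, n = 4 libraries), BCL2L1 73.4 ± 1.49, BAK1 31.3 ± 0.728, BAX 28.3 ± 1.53 and PMAIP1 18.2 ± 1.33 (SD, n = 4). BIK followed at 3.46 ± 0.594 FPKM, BBC3 at 1.84 ± 0.197, BCL2L11 at 1.78 ± 0.201, BMF at 0.388 ± 0.0222 and BCL2A1 at 0.113 ± 0.0723 (SD, n = 4). BBC3 and BCL2L11 were the only neighbours in this order whose libraries overlapped. In O/A, PMAIP1 moved from the fifth place to the third, behind MCL1 and BCL2L1, and BBC3 moved ahead of BIK. In O/A the overlapping neighbours were BAX with BAK1, BBC3 with BIK, and BCL2L11 with BCL2A1.

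**Figure D2:**
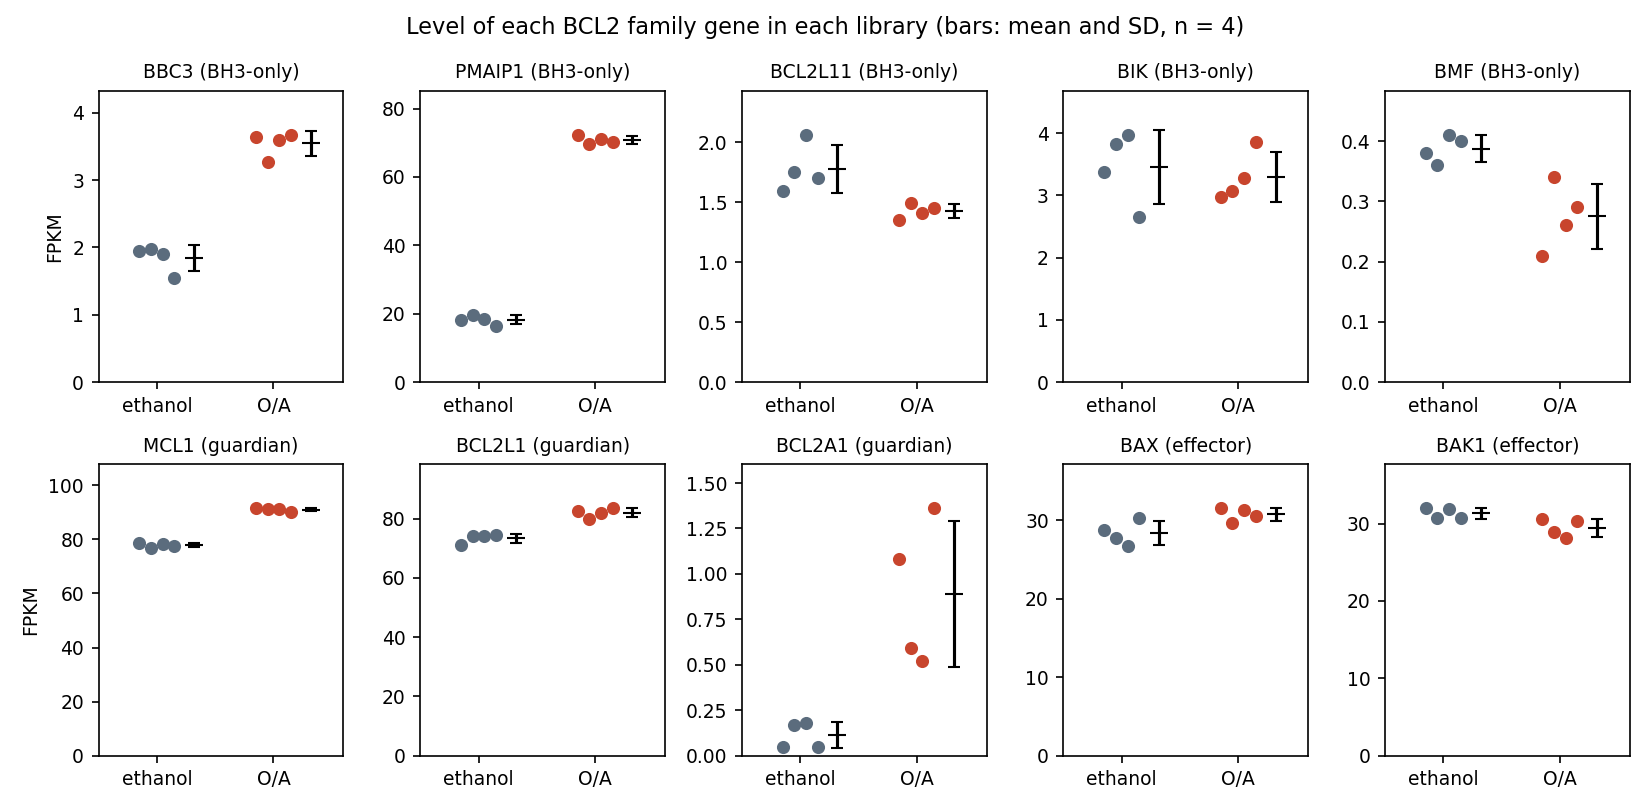
FPKM of each of the 10 genes (vertical axis, from 0, with its own scale per gene) in the 4 ethanol and the 4 O/A libraries, 1 point per library in the order of the replicate numbers, with the mean and SD beside them. The conditions are far apart for PMAIP1 and BBC3, the 4 O/A libraries differ widely among themselves for BCL2A1, and the points of BIK and BAK1 mix.

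PMAIP1 encodes NOXA, a BH3-only protein that binds MCL1 and can promote its degradation. The gene lies on chromosome 18 from 59899996 to 59904305. In ethanol its level was 18.24, 19.68, 18.55 and 16.47 FPKM, and in O/A it was 72.28, 69.54, 71.08 and 70.2 FPKM, here and below in the order of replicates 1 to 4. The lowest O/A library was far above the highest ethanol library. The log2(FC) was 2.01 (standard error 0.039, edgeR quasi-likelihood adjusted p = 6.32e-41), a 4.02-fold difference with a 95% interval of 3.80 to 4.24. It rested on 698 to 756 counts in each library of ethanol and 2720 to 2993 in each of O/A. This log2(FC) stood at the 99.5th percentile of all genes tested. No other gene of the annotation shared exonic bases with PMAIP1.

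BBC3 encodes PUMA, a BH3-only protein that binds all guardians. The gene lies on chromosome 19 from 47220822 to 47232766. In ethanol its level was 1.95, 1.97, 1.90 and 1.55 FPKM, and in O/A it was 3.64, 3.27, 3.60 and 3.67 FPKM. Every O/A library was above every ethanol library, with the lowest value of each condition somewhat apart from its other 3. The log2(FC) was 1.00 (standard error 0.098, edgeR quasi-likelihood adjusted p = 1.29e-12), a 1.99-fold difference with a 95% interval of 1.74 to 2.29, and 104 to 114 counts in each library of ethanol and 196 to 221 in each of O/A lay behind it. The difference stood at the 97.4th percentile of all genes tested, while the level of BBC3 in ethanol stood only at the 33.1st percentile.

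BCL2L11 encodes BIM, a BH3-only protein that dynein light chains can hold at microtubules. The gene lies on chromosome 2 from 111119378 to 111168445. In ethanol its level was 1.59, 1.75, 2.06 and 1.70 FPKM, and in O/A it was 1.35, 1.49, 1.41 and 1.45 FPKM. All O/A libraries were below all ethanol libraries, and ethanol replicate 3 was the highest. The log2(FC) was -0.27 (standard error 0.088, edgeR quasi-likelihood adjusted p = 0.00853), just past the fold change threshold. The call was lost without ethanol replicate 3, where log2(FC) was -0.20 and the adjusted p 0.0721, and log2(FC) was -0.24, within the threshold, without O/A replicate 1. The lncRNA MIR4435-2HG, on the opposite strand, shared 727 of the 6742 exonic bases of BCL2L11 and held 4764 counts over the 8 libraries against 1570. Whether counting used strand is not given in the sources used here, so reads in the shared bases cannot be assigned to either gene.

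BMF encodes a BH3-only protein known for its part in anoikis, the death of detached cells, and lies on chromosome 15 from 40087890 to 40108892. BMF in ethanol was at 0.38, 0.36, 0.41 and 0.40 FPKM, and in O/A it was 0.21, 0.34, 0.26 and 0.29 FPKM. The conditions did not overlap, but O/A replicate 2 came close to ethanol replicate 2. With 34 to 46 counts in each library of ethanol and 20 to 35 in each of O/A, the log2(FC) was -0.44 with a 95% interval of -0.85 to -0.04, and the adjusted p was 0.0572 in the same test. Without O/A replicate 2 the log2(FC) was -0.56 and the adjusted p 0.0312.

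BIK encodes a BH3-only protein found mostly at the endoplasmic reticulum and lies on chromosome 22 from 43110750 to 43129712. The level of BIK in ethanol was 3.38, 3.83, 3.97 and 2.65 FPKM, and in O/A it was 2.97, 3.07, 3.28 and 3.86 FPKM, so the conditions overlapped fully. The log2(FC) was -0.01 with a 95% interval of -0.33 to 0.30 (adjusted p = 0.956), and with 50 to 65 counts per library a difference within this interval was not detectable.

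MCL1 encodes a short-lived guardian and lies on chromosome 1 from 150560895 to 150579738. MCL1 in ethanol was at 78.82, 77.0, 78.32 and 77.64 FPKM, and in O/A it was 91.45, 91.09, 91.42 and 90.31 FPKM. Both conditions were tight and well apart. O/A gave a log2(FC) of 0.27 (standard error 0.024, edgeR quasi-likelihood adjusted p = 1.02e-13), a 1.21-fold difference with a 95% interval of 1.17 to 1.25, on 8387 to 10957 counts per library. The value lay near the fold change threshold and was within it, at 0.22, when the counts were scaled to the library total. Counts per gene do not tell the long isoform of MCL1 from the short one, which lacks the guardian function.

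BCL2L1 encodes BCL-XL, a long-lived guardian, and lies on chromosome 20 from 31664452 to 31723989. In ethanol its level was 71.22, 74.03, 74.0 and 74.48 FPKM, and in O/A it was 82.69, 79.82, 81.93 and 83.45 FPKM. The conditions did not overlap, but the difference was small. Here log2(FC) was 0.20 (standard error 0.026, edgeR quasi-likelihood adjusted p = 2.58e-09), with a 95% interval of 0.15 to 0.26, so BCL2L1 was within the fold change threshold and was not called. The antisense lncRNA ABALON shared 1735 of its 4197 exonic bases, and held 901 counts over the 8 libraries against 48137 for BCL2L1. Here too the counts do not separate the long guardian isoform from the short isoform, which promotes death.

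BCL2A1 encodes BFL-1, a guardian known as a target of NF-κB, and lies on chromosome 15 from 79960892 to 79971196. It had 1, 3, 3 and 1 counts with ethanol and 19, 11, 10 and 24 with O/A. Every O/A library was above every ethanol library, and O/A replicates 1 and 4 were about double the other two. Over all libraries of a condition this was 8 counts in ethanol and 64 in O/A, a ratio of 8.33 after scaling with an exact 95% interval of 3.98 to 20.1, which covers counting error only. BCL2A1 reached the minimum of 10 counts only through O/A, so it had to differ to be tested and its adjusted p is not independent support. The fitted log2(FC) was 2.98 (standard error 0.48, edgeR quasi-likelihood adjusted p = 5.31e-07) and depends on how counts near 0 are treated. On log2(FPKM + 1) it was 0.74. Its mean level in O/A, 0.888 ± 0.402 FPKM (SD, n = 4), was still far below that of MCL1. BCL2A1 is known to be expressed in blood cells, and the summed immune markers were also higher with O/A (0.89 to 1.08 FPKM against 0.54 to 0.80, with PTPRC at no more than 1 count in any library). Their part in this difference was not tested.

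Neither effector passed both thresholds. BAX, whose protein moves from the cytosol to mitochondria when it is activated, lies on chromosome 19 from 48954815 to 48961798, and in ethanol its level was 28.71, 27.69, 26.64 and 30.24 FPKM, and in O/A it was 31.47, 29.67, 31.24 and 30.51 FPKM. The conditions overlapped in FPKM, and after TMM scaling every O/A library was slightly above every ethanol library. BAX had a log2(FC) of 0.16 with a 95% interval of 0.08 to 0.24 (edgeR quasi-likelihood adjusted p = 0.00043), within the fold change threshold. BAK1, whose protein sits in the outer mitochondrial membrane, lies on chromosome 6 from 33572547 to 33580293, and in ethanol its level was 31.95, 30.69, 31.92 and 30.66 FPKM, and in O/A it was 30.59, 28.88, 28.14 and 30.27 FPKM. BAK1 had a log2(FC) of -0.04 with a 95% interval of -0.12 to 0.04 (adjusted p = 0.382), which leaves room for only a small difference. The ratio of BAX to BAK1 FPKM ranged from 0.835 to 0.986 with ethanol and from 1.01 to 1.11 with O/A. Genes named as pseudogenes of BAK1 held at most 15 counts in any library.

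Summed by role, the mRNA of BH3-only genes shifted most, and nearly all of that shift was PMAIP1. These sums and ratios are descriptions, with no test. The summed level of the 5 BH3-only genes was 25.7 ± 2.13 FPKM with ethanol against 79.3 ± 1.15 FPKM with O/A (SD, n = 4), and without PMAIP1 it was 7.46 ± 0.885 and 8.54 ± 0.519 FPKM, with overlapping libraries. PMAIP1 made up 71.0% ± 1.43 of the BH3-only sum in ethanol and 89.2% ± 0.644 in O/A (SD, n = 4). The 3 guardians summed to 151.5 ± 1.08 FPKM with ethanol against 173.9 ± 1.73 FPKM with O/A, and the 2 effectors to 59.6 ± 1.34 and 60.2 ± 1.55 FPKM (SD, n = 4), where the libraries overlapped. PMAIP1 was also set against MCL1, the guardian that its protein chiefly binds. The ratio of PMAIP1 to MCL1 was 0.231, 0.256, 0.237 and 0.212 in ethanol and 0.790, 0.763, 0.778 and 0.777 in O/A. The FPKM of PMAIP1 was thus below that of MCL1 in every library. These are amounts of mRNA, and the proteins were not measured in these libraries.

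**Figure D3:**
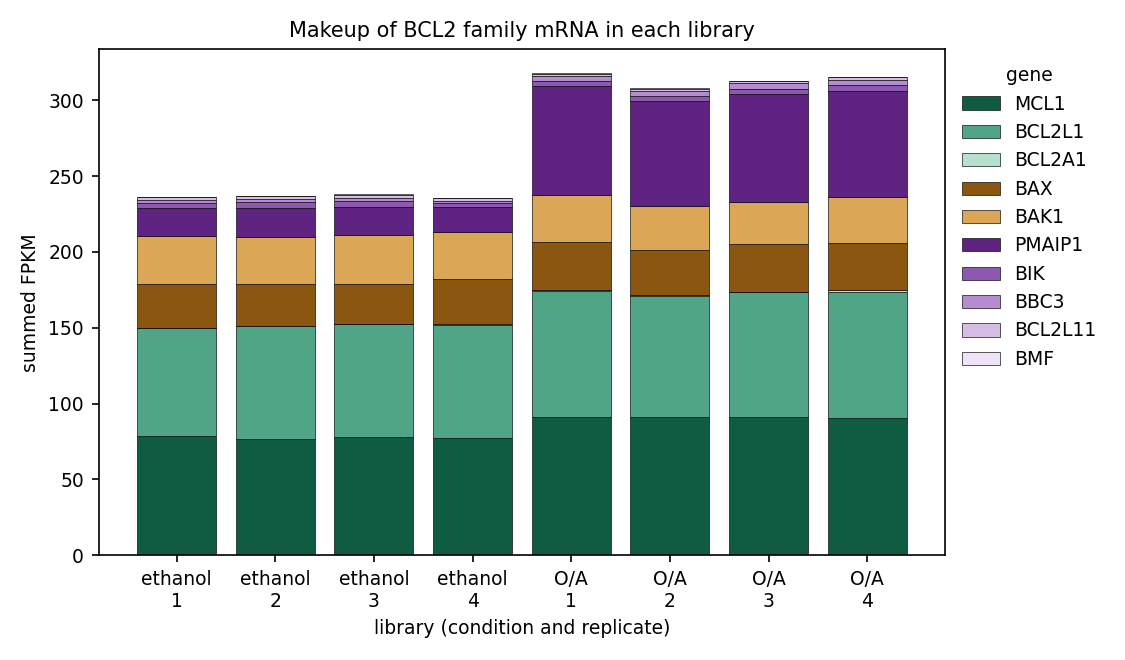
Summed FPKM of the 10 genes (vertical axis, from 0) in each of the 8 libraries, stacked by gene, with guardians at the bottom in green, effectors in brown and BH3-only genes on top in purple. The total was 236.8 ± 0.938 FPKM with ethanol against 313.4 ± 4.27 FPKM with O/A (SD, n = 4), and the PMAIP1 band accounts for most of the gap.

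In the rest of the BCL2 family, log2(FC) ranged from -0.78 to 0.59. Of 13 other family genes, 9 had enough counts to be tested, and 2 were upregulated and 2 downregulated, against the background of 15.8% and 18.9% of all genes tested, with a median log2(FC) of -0.01. BCL2L2, which encodes the guardian BCL-W, rose from 12.7 ± 0.312 to 18.6 ± 0.424 FPKM (SD, n = 4), a log2(FC) of 0.59 (edgeR quasi-likelihood adjusted p = 1.17e-19). It shares 815 of 4840 exonic bases with the readthrough gene BCL2L2-PABPN1, and reads there could have been left out or counted elsewhere. BCL2L12 rose by a log2(FC) of 0.28, near the threshold, and when counts were scaled to the library total 1 gene of this list was upregulated in place of 2. BCL2L12 shares 734 of 2833 exonic bases with IRF3 on the opposite strand. BOK, a BAX-like family member, fell with a log2(FC) of -0.42. BCL2, the founding guardian, was barely expressed, at 0.175 ± 0.0311 FPKM with ethanol against 0.10 ± 0.0183 FPKM with O/A (SD, n = 4), and fell with a log2(FC) of -0.78 (adjusted p = 0.00158) on 18 to 52 counts per library. BCL2L10, BCL2L14, BCL2L15 and HRK had too few counts to be tested, at most 6 in any library.

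Downstream of the mitochondrion, 10 of 15 genes of the apoptosome, the caspases and their inhibitors were called, 4 upregulated and 6 downregulated, where 34.7% of all genes tested were called, 15.8% upregulated and 18.9% downregulated. The median log2(FC) was -0.08. The rises were led by inhibitors of apoptosis proteins, with BIRC3 at a log2(FC) of 1.54 (3.85 ± 0.162 to 10.8 ± 0.504 FPKM, SD, n = 4), BIRC2 at 0.51 and XIAP at 0.38, beside CASP9, the initiator caspase, at 0.32 on 66 to 117 counts per library and with overlapping conditions. Among the falls was APAF1, the scaffold of the apoptosome, at -0.72 (6.47 ± 0.231 to 3.80 ± 0.271 FPKM, SD, n = 4). BIRC5, known chiefly for its part in cell division, fell at -0.54, the mitochondrial protease HTRA2 at -0.51 and the large ubiquitin ligase BIRC6 at -0.36. HTRA2 shares 936 of 3405 exonic bases with LOXL3 on the opposite strand. This list therefore held inhibitors of caspases that rose beside others that fell.

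Among 14 genes whose proteins act on the BCL2 family, 3 were upregulated and 2 downregulated, a share close to the 34.7% called among all genes tested, with a median log2(FC) of 0.09 and a range of -0.27 to 0.39. MOAP1, which encodes a binding partner of BAX, was at 0.39. TMBIM6, the BAX inhibitor 1 of the endoplasmic reticulum, and GHITM, its relative in mitochondria, were both at 0.28 and were within the threshold when counts were scaled to the library total, which left 1 of the list upregulated. BTRC, a ubiquitin ligase subunit, was at -0.27 and the chaperone partner BAG1 at -0.26.

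Of 13 regulators known to act on BH3-only genes, 5 were upregulated and 3 downregulated, against 15.8% and 18.9% of all genes tested. Their median log2(FC) was 0.17. This list was chosen with earlier results of these data known, so its share of calls is a description and not a test of the list. The 5 that rose were genes of the integrated stress response and its partners, namely DDIT3 (CHOP) at a log2(FC) of 3.90, CEBPB at 2.11, ATF3 at 1.98, the pseudokinase TRIB3 at 1.74 and ATF4 at 1.54. TP63, a transcription factor of basal keratinocytes, had a log2(FC) of -0.05 with a 95% interval of -0.12 to 0.01. TP73 was at -1.32, on 12 to 47 counts per library and with 633 of 6767 exonic bases shared with TP73-AS1, MYC was at -0.67 and FOXO1 at -0.28. DDIT3 shares 355 of 1307 exonic bases with MARS1 on the opposite strand. These are transcript levels, and whether any of these factors acted on the 10 genes was not tested.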

How the data were processed

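The authors selected mRNA with oligo(dT) beads, aligned the read pairs with HISAT2 (2.0.1) to GRCh38.p13 and counted them per gene with HTSeq (0.6.1). They deposited raw counts and FPKM values, and each FPKM was within 0.005 of the count divided by exonic size and library total. The annotation release and strand setting are not given in the sources used here. Their own DESeq2 table (fold changes and p-values) was not used.

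Counts were fitted with edgeR 4.0.16 (R 4.3.3), with TMM scaling, the robust quasi-likelihood test and Benjamini-Hochberg adjustment over the 14893 genes that reached 10 counts in 4 or more libraries. The same fit gave standard errors and 95% intervals. DESeq2 1.42.0 and limma 3.58.1 were alternatives, and the code was tested on simulated data. Libraries of 1 condition differed by more than sampling noise (chi-square per degree of freedom 1.71 to 5.24), so none was a copy. Libraries sharing a replicate number showed almost no shared deviation, so no block was used. This does not show whether they came from the same experiment.

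The 10 genes and the lists were chosen with earlier results of these data known. All 10 genes are named, and from each list at most the 5 largest calls in each direction, plus untested genes. Some listed genes are not reported here. Exon overlaps came from GENCODE 44.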

Additional observations from a re-analysis of the deposited data

Results flagged for a closer look

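In 1 of 20 groups of 4 libraries (10 genes in 2 conditions), 1 library lay far from the other 3, and chance gives about 1 in 20. That library was O/A replicate 2 for BBC3, with 10.56 TMM-scaled CPM, where the rest of the O/A libraries had 11.7 to 11.9. This value was still above every ethanol library, which had 4.89 to 6.17 TMM-scaled CPM.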

How the results depend on the processing

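At the thresholds used, PMAIP1, BBC3 and BCL2A1 kept their call in every other scaling, filter, tool, block or left-out library that tested them. BCL2L1, BAX and BAK1 stayed uncalled in all of these. The log2(FC) ranged from 1.90 to 2.04 for PMAIP1, 0.68 to 1.04 for BBC3 and 0.74 to 3.26 for BCL2A1. BCL2A1, however, passed the filter on counts only through O/A, and the filter was not redone when a library was left out. It would not have passed with an O/A library left out, so its kept call there is no support. MCL1 fell within the threshold under upper-quartile scaling (0.24), scaling to the library total (0.22), log2(FPKM + 0.1) (0.22) and log2(FPKM + 1) (0.22). BCL2L11 was not called on log2(FPKM + 1) (-0.19) and lay between -0.32 and -0.20 with 1 library left out. BMF was called under upper-quartile scaling (-0.48), total scaling (-0.49) and log2(FPKM + 0.1) (-0.39), and lay between -0.56 and -0.34 with 1 library left out. BIK, near 0, changed direction without ethanol replicate 2 (0.041) or 3 (0.057) or O/A replicate 1 (0.032) or 2 (0.030), with a lowest value of -0.13. The cause was not tested, except that the scalings shift all genes.

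Over the 14893 genes tested, 7999 (53.7%) were called without a fold change threshold and 797 (5.35%) at an absolute log2(FC) above 1. Without that threshold, BCL2L1 and BAX were also called (7 of the 10 genes). Above 1, BBC3, MCL1 and BCL2L11 lost their call (2 of the 10 genes were called). Called above 1 were 0 of the other family genes, 1 of the apoptosome list and 0 of the genes acting on BCL2 family proteins. Of the 13 regulators known to act on BH3-only genes, 6 were called above 1. On log2(FPKM + 1), 3 of the 10 genes and 2 other family genes were called, against 3923 of the 14893 genes tested. Of the 14 genes whose proteins act on the BCL2 family, 3 were called under upper-quartile and under total scaling. Over all 14893 genes tested, 5211 and 5255 were called under these scalings. Without a fold threshold, 12 of these 14 genes were called, against 53.7% of all genes tested. The share of all calls that were upregulated was 45.5%, and 37.5% under total scaling.

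Deviations of libraries sharing a number correlated at 0.039, -0.0021, -0.023 and 0.068. With the replicate block, 5 of the 10 genes were called and the log2(FC) of PMAIP1 was 2.01. Depth limits BCL2A1 and BMF, which were not tested at a minimum of 50 counts.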
